A study of Rattus norvegicus with 6 samples.

Results

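The genes described here are 8 members of the T cell receptor complex and its first signalling steps, measured in the skin of rats with a rash from gefitinib or afatinib, drugs that block EGFR, the receptor for epidermal growth factor. They were chosen by name as the invariant CD3 chains (Cd3d, Cd3e and Cd3g), the coreceptors Cd4 and Cd8a, the adhesion receptor Cd2, and the tyrosine kinases Zap70 and Lck. All 8 were found, with 1 row each, among the 34225 loci of the count table, and all 8 were among the 16398 loci that passed the filter on low counts. No member overlapped another locus of the table. All are protein-coding, and in the deposited coordinates Zap70 lies on chromosome 9 (43331155 to 43353113, plus strand), Lck on chromosome 5 (147750973 to 147761983, minus), Cd8a on chromosome 4 (99239115 to 99243351, plus), Cd4 on chromosome 4 (157383052 to 157408176, minus) and Cd2 on chromosome 2 (203666637 to 203680083, minus). Messenger RNA of back skin was sequenced in 6 libraries, all from Sprague-Dawley rats. In the gefitinib group, 2 libraries came from rats given gefitinib by mouth every day at 80 mg/kg until a rash appeared. In the afatinib group, 2 libraries came from rats given afatinib in the same way at 30 mg/kg, again until rash. In the untreated group, 2 libraries came from rats that received no drug. The number of dosing days, the age and the sex of the rats are not given in the labels, and neither is whether libraries of 1 group came from separate animals, so p-values measure the spread between these libraries only. Whole skin was sequenced, so fewer T cells and less RNA per T cell cannot be told apart.

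On the T cell surface the antigen-binding receptor chains have almost no cytoplasmic part, and signals are passed on by the CD3 chains that travel with them. Lck, held near the receptor by the coreceptors CD4 and CD8, phosphorylates the CD3 chains and CD247, and ZAP-70 then docks on the phosphorylated chains and phosphorylates LAT and other adaptors. CD2 binds CD48 on neighbouring cells in rodents and strengthens contact. In skin these genes mark resident and recruited T cells; natural killer (NK) cells also carry Zap70, Lck and Cd2, and rat macrophages also carry Cd4. Gefitinib is a reversible EGFR inhibitor and afatinib an irreversible inhibitor of the EGFR family, and patients given either often develop a rash.

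The libraries held 17206456 to 22086673 counts, and 18487 to 19913 loci had at least 1 count. The members were scarce in every library: together they held 255 to 376 counts in gefitinib libraries, 438 to 566 in afatinib libraries and 144 to 252 in untreated libraries. Levels of tissue marker genes differed between groups. The summed level of 10 skeletal muscle genes was 30828 to 64171 CPM (counts scaled to library size, here with the TMM method) with gefitinib, 32077 to 135512 CPM with afatinib and 201968 to 221417 CPM without treatment. Of 7 tested neutrophil genes 4 rose with both inhibitors, and the list summed to 727 to 1281 CPM with gefitinib, 1696 to 1933 CPM with afatinib and 16.3 to 16.5 CPM untreated. In the inhibitor libraries most of that sum was S100a8 and S100a9. Their means were 511 and 476 CPM with gefitinib, 971 and 814 CPM with afatinib, and 6.03 and 0.491 CPM untreated. Of the same list Csf3r rose by 3.62 on the log2 scale (edgeR adjusted p = 0.0132) with both inhibitors. Mmp8, with 2 and 0 untreated counts, had a count ratio of 47.3 (edgeR adjusted p = 0.0153). Cxcr2 and Mpo had count ratios of 16.4 and 12.7 and did not pass, and Ncf1 had a log2 fold change of 0.12. The sum was not taken as a measure of neutrophil content, which was not tested. Of the other marker lists, 2 of 9 dendritic and Langerhans cell genes, 2 of 8 mast cell genes and 1 of 8 fibroblast genes rose with both inhibitors. Of all tested genes 11.0% rose in that comparison. None of these listed genes fell past the threshold, but the list medians were -0.35, 0.20 and -0.85 on the log2 scale. The fibroblast list summed to 1325 to 6358 CPM with gefitinib, 3337 to 9144 CPM with afatinib and 10355 to 21554 CPM untreated. Of 4 B cell genes and 10 muscle genes 0 passed. With scaling by library size only, the median log2 fold change of all genes against untreated rose by 0.683 for gefitinib, 0.615 for afatinib and 0.656 for both inhibitors. Log2 fold changes below use TMM, under which those medians were 0.043, 0.091 and 0.061.

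The kinase gene Zap70 had higher counts in all 4 inhibitor libraries than in either untreated library, and it was the member that passed the test with each inhibitor. Lck passed against untreated when the inhibitors were pooled. Because these 2 kinase genes carry the clearest differences, the sequence around their transcription starts is shown, from 250 bases before to 50 bases after each start in RefSeq on the rat build GRCr8. The Zap70 window lies at chr9:46485355-46485654 on the plus strand, and the Lck windows lie at chr5:147201218-147201517 and chr5:147183601-147183900 on the minus strand. Lck has a pair of listed starts, and in mouse and human its distal and proximal promoters are known to be used in different stages of the T cell's life; the deposited counts do not separate them. Capitals mark GGAAG or its reverse complement, core letters known from sites of ETS factors.
Zap70: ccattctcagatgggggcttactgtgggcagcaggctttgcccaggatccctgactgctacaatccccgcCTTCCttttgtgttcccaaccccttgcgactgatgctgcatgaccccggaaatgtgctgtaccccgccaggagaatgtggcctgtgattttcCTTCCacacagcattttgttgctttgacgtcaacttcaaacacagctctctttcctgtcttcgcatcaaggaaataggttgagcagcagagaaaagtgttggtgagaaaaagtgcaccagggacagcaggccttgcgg
Lck, upstream start: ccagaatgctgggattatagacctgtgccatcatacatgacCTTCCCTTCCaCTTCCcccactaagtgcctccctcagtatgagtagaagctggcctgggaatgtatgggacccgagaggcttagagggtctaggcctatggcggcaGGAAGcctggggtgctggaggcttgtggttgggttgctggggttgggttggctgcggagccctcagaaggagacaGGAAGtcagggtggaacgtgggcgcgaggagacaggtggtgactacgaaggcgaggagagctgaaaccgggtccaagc
Lck, downstream start: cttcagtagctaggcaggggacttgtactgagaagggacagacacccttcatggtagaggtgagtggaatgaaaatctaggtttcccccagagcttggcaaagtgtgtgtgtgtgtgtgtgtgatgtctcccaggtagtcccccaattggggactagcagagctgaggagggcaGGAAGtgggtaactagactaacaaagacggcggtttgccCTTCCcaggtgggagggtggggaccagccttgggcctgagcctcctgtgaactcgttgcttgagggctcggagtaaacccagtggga
Searched on both strands, GGAAG occurred 2 times in the Zap70 window, 5 times in the upstream Lck window and 2 times in the downstream one. A window with 3 or more matches was found for 16.0% of the 33469 starts in the table, and at least 1 match for 70.1%. Over the members, 7 of the 8 had a listed window, Cd4 being the exception, and 7 of the 8 windows, Lck's pair included, held GGAAG; the Cd8a window did not. The letters TGACGT, known from sites of CREB and ATF factors, matched the Zap70 window on both strands as 1 palindrome whose matches overlap. They also occurred 1 time in the Cd3e window, so 2 of the 8 member windows held them, beside 7.94% of all windows. Core letters of TCF, GATA and RUNX factors were searched too. CTTTGA (TCF) was in 2 of the 8 member windows, 1 of them that of Zap70, beside 16.1% of all windows. GATAA was in 1 of the 8, beside 26.5%, and TGTGGT (RUNX) in 2, the upstream Lck window included, beside 17.3%. These matches describe letters only, and binding was not measured.

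Zap70 had 26 and 45 counts with gefitinib, 26 and 51 with afatinib, and 2 and 1 in untreated skin. The levels were 1.02 and 1.97 CPM, 1.69 and 1.97 CPM, and 0.138 and 0.0582 CPM in the same order. The inhibitor libraries lay well apart from the untreated ones, and the gefitinib and afatinib libraries overlapped. Since the untreated group held 3 counts in all, the change is given as a ratio of summed counts scaled to depth: 15.5 for gefitinib against untreated (95% exact interval 5.09 to 76.9, counting error only) and 19.7 for afatinib against untreated (6.48 to 97.4). By edgeR's quasi-likelihood test with Benjamini-Hochberg adjustment over all genes, Zap70 rose with gefitinib (adjusted p = 0.0226) and with afatinib (adjusted p = 0.0412), as 12.3% and 3.60% of all tested genes did. It also rose with both inhibitors together (ratio 17.4, interval 5.84 to 85.4; edgeR adjusted p = 0.0191), a comparison in which 11.0% of tested genes rose. No untreated library reached the filter's level for Zap70, so it was tested through the inhibitor libraries.

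The Zap70 calls were lost in some fits without 1 library, in which a lone library is assumed to vary like the other groups. Without either untreated library 0 of all tested genes passed for either inhibitor, so no call could remain there, and the fitted log2 fold change stayed at 3.25 to 4.55 for gefitinib and 3.67 to 4.84 for afatinib over all alternatives. For gefitinib, edgeR's adjusted p was 0.0518 without gefitinib replicate 1, 0.116 without gefitinib replicate 2, 0.105 without untreated replicate 1 and 0.145 without untreated replicate 2. For afatinib it was 0.0799 and 0.0858 without gefitinib replicate 1 and 2, 0.115 without afatinib replicate 2, and 0.215 and 0.245 without untreated replicate 1 and 2. For afatinib the adjusted p was also 0.0861 in a fit of the afatinib and untreated libraries alone and 0.0893 with limma-voom. The direction held throughout: without 1 untreated library the count ratio was 10.6 to 25.2 for gefitinib and 13.5 to 32.0 for afatinib.

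Lck, the kinase upstream of ZAP-70, had 89 and 67 counts with gefitinib, 66 and 121 with afatinib, and 21 and 17 in untreated skin. Its levels were 3.49 and 2.93 CPM with gefitinib, 4.29 and 4.67 CPM with afatinib, and 1.45 and 0.989 CPM without treatment. All 4 inhibitor libraries lay above both untreated libraries, and both afatinib libraries lay above both gefitinib libraries. Lck rose with both inhibitors together by 1.64 ± 0.416 on the log2 scale (SE, n = 4 against 2; edgeR adjusted p = 0.0396). The single inhibitors gave log2 fold changes of 1.40 ± 0.453 for gefitinib (adjusted p = 0.0716, edgeR) and 1.88 ± 0.456 for afatinib (adjusted p = 0.0674), which did not pass. For both inhibitors edgeR's adjusted p was 0.111 and 0.100 without gefitinib replicate 1 and 2, 0.0536 without afatinib replicate 2, 0.144 and 0.245 without untreated replicate 1 and 2, and 0.0522 with limma-voom. The log2 fold change stayed between 1.38 and 2.30 in every alternative fit of that comparison.

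Markers of NK cells, which carry both kinases, were set beside them. None of the 7 tested of 16 NK and cytotoxic genes passed against untreated, and their median log2 fold change was 0.37 with both inhibitors. The tested genes ranged from -1.22 for Nkg7 to 1.28 for Klrb1a with both inhibitors. With gefitinib Nkg7 and Gzmm lay below both untreated libraries, Klrb1a and Cst7 lay above both, and Klrk1, Prf1 and Ctsw overlapped them. With afatinib Klrb1a, Klrk1, Prf1, Gzmm and Cst7 lay above both untreated libraries, and Nkg7 and Ctsw overlapped them. The summed level of the 15 genes found was 8.49 to 9.76 CPM with gefitinib, 14.4 to 18.3 CPM with afatinib and 7.16 to 8.44 CPM without treatment. The gefitinib and untreated groups were thus barely apart, at 8.49 against 8.44 CPM. Ncr1, an activating receptor that defines NK cells, was too low to be tested. It had 2 and 10 counts with gefitinib, 3 and 12 with afatinib and 0 in both untreated libraries. The part of NK cells in the kinase result was not tested.

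**Figure D1:**
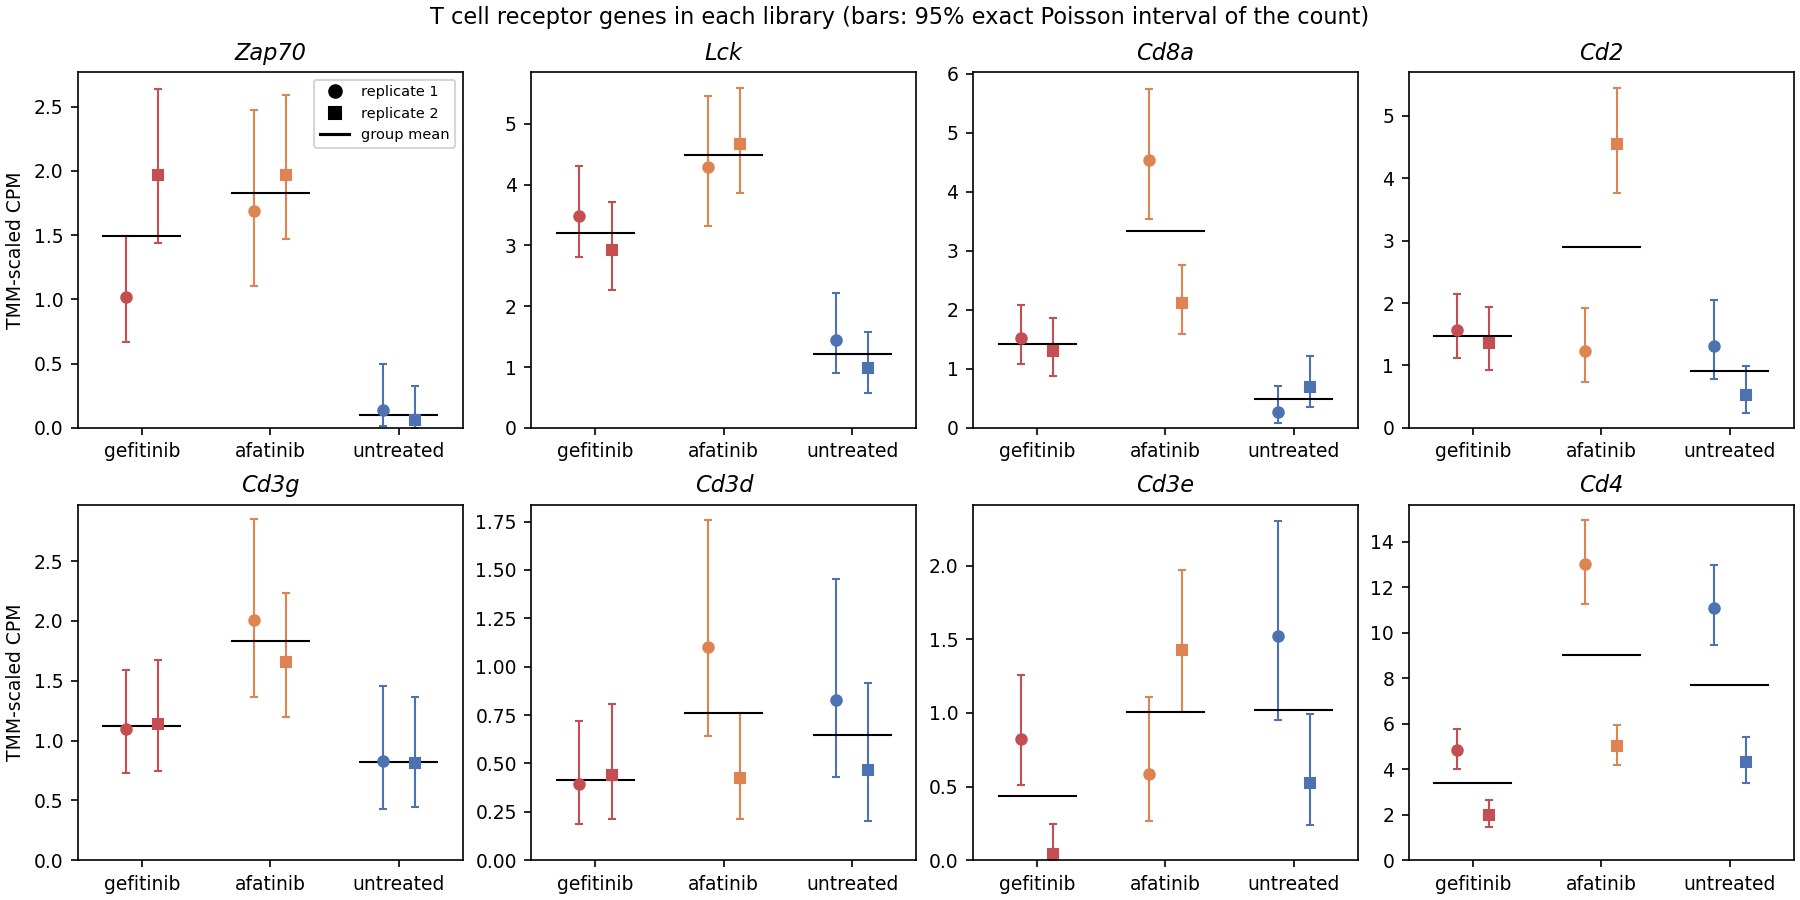
TMM-scaled CPM of each member in each library, on a linear axis from 0 with its own range per gene; circles and squares are replicates 1 and 2, black lines are group means, and bars are 95% exact Poisson intervals of the count. Zap70, Lck, Cd8a and Cd3g have all 4 inhibitor libraries above both untreated ones, while Cd3d, Cd3e, Cd2 and Cd4 overlap.

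The coreceptors did not move alike. Cd8a, the alpha chain of CD8, had 39 and 30 counts with gefitinib, 70 and 55 with afatinib, and 4 and 12 in untreated skin. The part of each cell type, NK cells included, in the Cd8a values was not tested. In CPM these were 1.53 and 1.31, 4.55 and 2.12, and 0.277 and 0.698. The groups did not overlap. The log2 fold change was 1.51 ± 0.682 for gefitinib (95% interval -0.09 to 3.11; edgeR adjusted p = 0.151), 2.73 ± 0.689 for afatinib (interval 1.11 to 4.34; adjusted p = 0.0733) and 2.12 ± 0.631 for both (adjusted p = 0.0606), and none passed. Cd8b, the beta chain that pairs with it on most CD8 T cells, is named after its values were seen and had 10 and 13 counts with gefitinib, 1 and 4 with afatinib, and 7 and 0 untreated (log2 fold change 0.04 with both inhibitors, edgeR adjusted p = 0.987). With both inhibitors Cd8a passed in 4 of 11 alternative fits and did not pass in the rest. Its log2 fold change stayed between 1.63 and 2.95. The fits that passed were DESeq2 (adjusted p = 0.0160), scaling by library size only (edgeR, 0.0296), no filter on low counts (edgeR, 0.0199) and a fit that left out 1 library.

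Cd4, the coreceptor of helper T cells, had the highest mean FPKM of the members in each group, though in gefitinib replicate 2 Cd3g and Lck and in afatinib replicate 2 Cd2 stood above it. It had 123 and 45 counts with gefitinib, 200 and 130 with afatinib, and 160 and 74 in untreated skin. Its levels were 4.82 and 1.97 CPM, 13.0 and 5.01 CPM, and 11.1 and 4.31 CPM in that order, and in each group 1 library was more than 2 times as high as the other. Libraries of each inhibitor overlapped the untreated ones. The log2 fold change was -1.17 ± 0.690 for gefitinib (edgeR adjusted p = 0.252), 0.22 ± 0.677 for afatinib (0.869) and -0.47 ± 0.580 for both (0.583). The value for both inhibitors was 0.15 under scaling by library size only and 0.36 without untreated replicate 1. Macrophage and monocyte markers, which share Cd4 in the rat, varied in the same libraries: 14 of 14 were tested, 0 passed, none was at 0, and their summed level was 397 and 218 CPM with gefitinib, 635 and 360 CPM with afatinib, and 537 and 341 CPM untreated. In each group the library with more macrophage signal was the one with more Cd4. The part of macrophages in the Cd4 values was not tested.

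Within a library a ratio of 2 genes does not depend on the scaling between libraries. Divided by gene length, Cd4 counts were 2.50 and 1.19 times those of Cd8a with gefitinib, 2.27 and 1.88 times with afatinib, and 31.7 and 4.89 times in untreated skin. The 95% exact intervals for the untreated libraries were 12.2 to 118 and 2.64 to 9.90. The 4 inhibitor libraries all lay below both untreated libraries. The part of each cell type in this ratio was not tested. An exact two-sided permutation test of 4 against 2 libraries gave p = 0.133, the smallest that this design allows, so it cannot reach the threshold of 0.05.

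Cd2, the adhesion receptor, had 40 and 31 counts with gefitinib, 19 and 118 with afatinib, and 19 and 9 in untreated skin. These were 1.57 and 1.36 CPM, 1.23 and 4.55 CPM, and 1.31 and 0.524 CPM. Afatinib replicate 2 stood far above the other libraries, while afatinib replicate 1 lay below untreated replicate 1. Cd2 did not pass for gefitinib (log2 fold change 0.68 ± 0.772, edgeR adjusted p = 0.543), for afatinib (1.68 ± 0.772, 0.259) or for both (1.18 ± 0.697, 0.261). Without afatinib replicate 1 the edgeR adjusted p for afatinib was 0.0497. Cd48, which encodes the ligand of CD2, had a log2 fold change of -0.96 with both inhibitors (edgeR adjusted p = 0.0721).

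**Figure D2:**
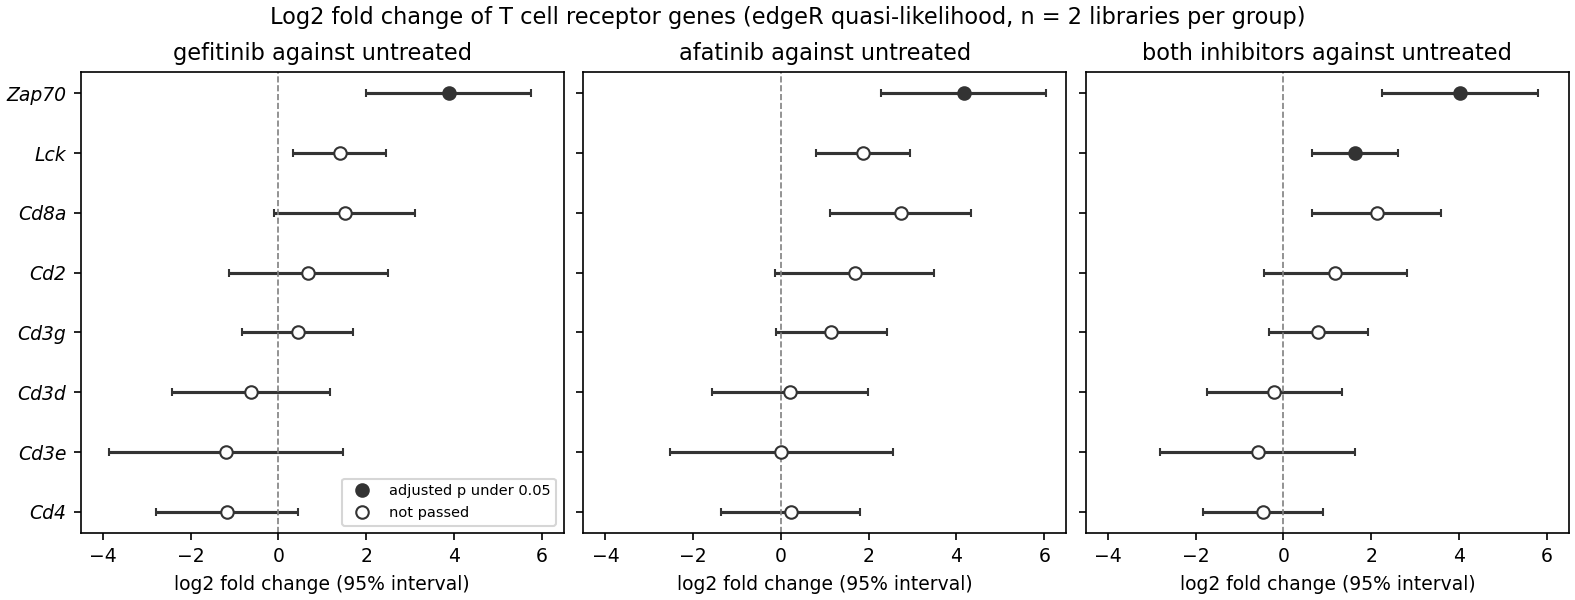
Log2 fold change of each member from the edgeR fit, with 95% intervals, for gefitinib, afatinib and both inhibitors against untreated (2 libraries per group); filled points have an adjusted p under 0.05. Zap70 is filled in all 3 panels and Lck in the last; the fitted Zap70 value rests on 3 untreated counts and depends on the fit's prior count.

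The CD3 genes lie side by side on chromosome 8. In the deposited coordinates, for which no build is named in the sources at hand and which are not those of GRCr8, Cd3g spans 49274960 to 49280901 on the minus strand, Cd3d spans 49282460 to 49287110 on the plus strand, and Cd3e spans 49297608 to 49308806 on the minus strand. The gaps are 1558 and 10497 bases.

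Cd3g, the gamma chain, had 28 and 26 counts with gefitinib, 31 and 43 with afatinib, and 12 and 14 in untreated skin. Its levels were 1.10 and 1.14 CPM, 2.01 and 1.66 CPM, and 0.830 and 0.815 CPM. The groups did not overlap, and afatinib libraries were the highest. The log2 fold change did not pass: 0.44 ± 0.536 for gefitinib (edgeR adjusted p = 0.572), 1.15 ± 0.535 for afatinib (0.264) and 0.79 ± 0.478 for both (0.269).

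Cd3d, the delta chain, had 10 and 10 counts with gefitinib, 17 and 11 with afatinib, and 12 and 8 in untreated skin. In CPM it was 0.392 and 0.438, 1.10 and 0.424, and 0.830 and 0.465, with both gefitinib libraries below both untreated ones and afatinib on either side. The log2 fold change was -0.63 ± 0.769 for gefitinib (edgeR adjusted p = 0.575) and 0.21 ± 0.757 for afatinib (0.892). With counts this low, the interval for both inhibitors, -1.75 to 1.33, is wide on both sides of 0.

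Cd3e, the epsilon chain that pairs with both the gamma and the delta chain, had 21 and 1 counts with gefitinib, 9 and 37 with afatinib, and 22 and 9 in untreated skin. The levels were 0.823 and 0.0438 CPM, 0.585 and 1.43 CPM, and 1.52 and 0.524 CPM. Gefitinib replicate 2 stood out with 1 count in a library of 20560892. The log2 fold change was -1.19 ± 1.138 for gefitinib (edgeR adjusted p = 0.467) and 0.01 ± 1.081 for afatinib (0.994). Without gefitinib replicate 2 the gefitinib value was -0.38 (adjusted p = 0.846, edgeR).

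Summed over the 3 CD3 genes, the level was 2.31 and 1.62 CPM with gefitinib, 3.70 and 3.51 CPM with afatinib, and 3.18 and 1.80 CPM in untreated skin, so afatinib libraries were highest and the other groups overlapped. Ratios of the kinases to Cd3g and to each other were set beside these sums. Per length, the ratio of Zap70 to Cd3g was 0.258 and 0.481 with gefitinib, 0.233 and 0.330 with afatinib, and 0.0463 and 0.0199 in untreated skin. The ratio of Lck to Cd3g was 0.945 and 0.766 with gefitinib, 0.633 and 0.837 with afatinib, and 0.520 and 0.361 in untreated skin. The ratio of Zap70 to Lck was 0.273 and 0.628, 0.368 and 0.394, and 0.0891 and 0.0550 in the same order. In all 3 the inhibitor libraries lay above both untreated ones. Cd3d against Cd3g went the other way, at 0.306 and 0.329 with gefitinib, 0.469 and 0.219 with afatinib, and 0.856 and 0.489 untreated. Cd3e against Cd3g overlapped, at 0.309 and 0.0158 with gefitinib, 0.119 and 0.354 with afatinib, and 0.755 and 0.265 untreated. Over the 6 ratios examined, all chosen after the values were seen, 5 had an exact permutation p of 0.133 (0.160 adjusted over the 6) and Cd3e against Cd3g had 0.400.

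**Figure D3:**
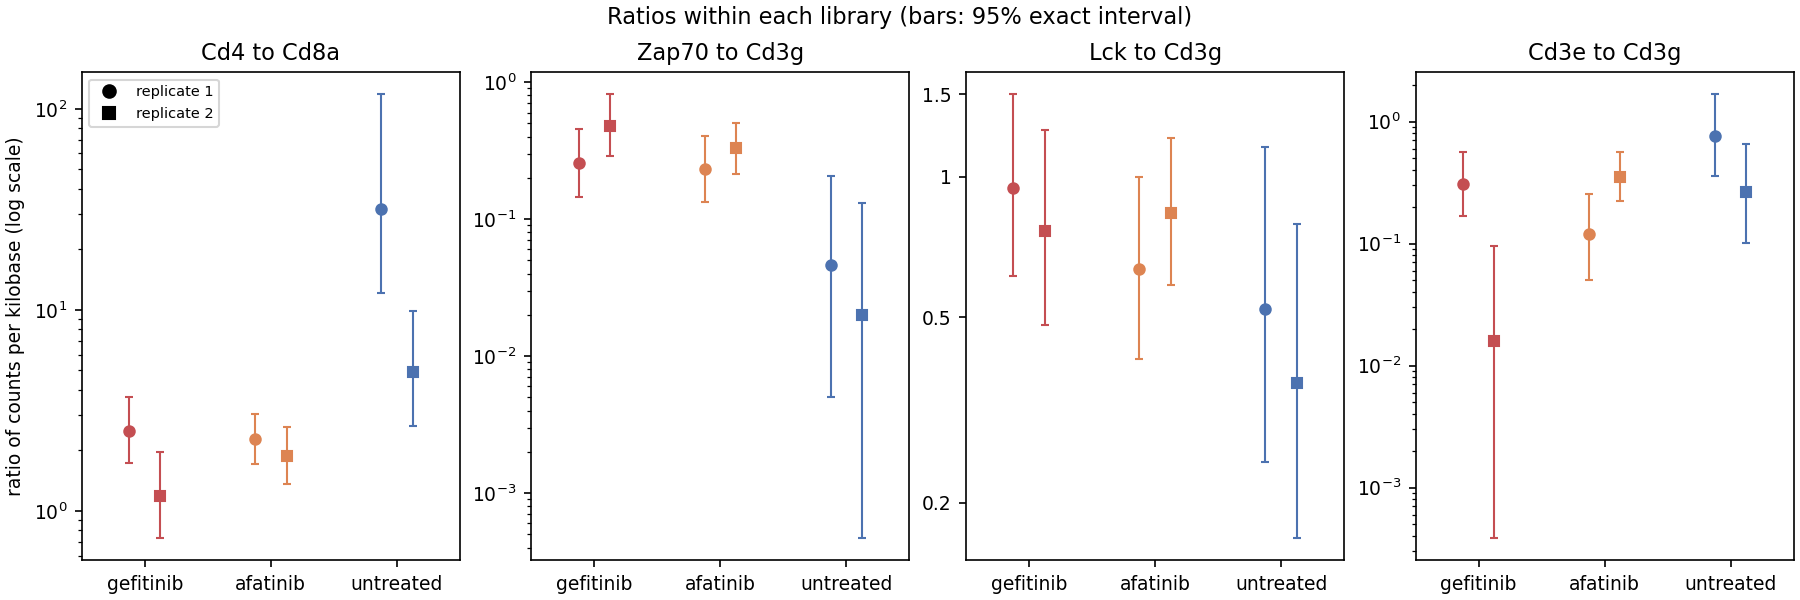
Ratios of counts per kilobase within each library, on log axes, for Cd4 to Cd8a, Zap70 to Cd3g, Lck to Cd3g and Cd3e to Cd3g; points are libraries and bars are 95% exact intervals that cover counting error only. Cd4 to Cd8a is 31.7 and 4.89 in untreated skin and 1.19 to 2.50 in the inhibitor libraries, and Zap70 to Cd3g is 0.0463 and 0.0199 in untreated skin against 0.233 to 0.481 in the inhibitor libraries.

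Levels between genes were compared on the deposited FPKM values, which divide by gene length. With gefitinib the mean order was Cd4 (1.91 FPKM), Cd3g (1.79), Lck (1.52), Cd2 (1.19), Cd8a (1.01), Zap70 (0.666), Cd3d (0.568) and Cd3e (0.282). With afatinib it was Cd4 (4.99 FPKM), Cd3g (2.87), Cd8a (2.33), Cd2 (2.27), Lck (2.07), Cd3d (1.03), Zap70 (0.792) and Cd3e (0.641). In untreated skin it was Cd4 (4.44 FPKM), Cd3g (1.35), Cd3d (0.908), Cd2 (0.764), Cd3e (0.689), Lck (0.595), Cd8a (0.356) and Zap70 (0.0447). Lck and Cd8a thus stood above Cd3d and Cd3e in mean level in both inhibitor groups and below them in untreated skin. Neighbours in these orders were often not separated. In untreated skin the libraries of Cd3d, Cd2, Cd3e, Lck and Cd8a overlapped from each to the next, with Cd4 and Cd3g above and Zap70 below without overlap. With afatinib each neighbouring pair overlapped except Lck and Cd3d, and with gefitinib the overlapping pairs were Cd4 and Cd3g, Zap70 and Cd3d, and Cd3d and Cd3e.

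In direct comparison of afatinib with gefitinib, all 8 members had a positive log2 fold change and none passed, as 0% of all tested genes did; 0 members and 946 genes had an unadjusted edgeR p under 0.05. The doses differ, and days of dosing may differ too, so the values stand side by side. Cd4 differed by 1.40 ± 0.691 (95% interval -0.23 to 3.02), Cd8a by 1.22 ± 0.621 (-0.24 to 2.67), Cd3e by 1.21 ± 1.120 (-1.42 to 3.84) and Cd2 by 1.00 ± 0.734 (-0.73 to 2.72). Cd3d differed by 0.84 ± 0.756 (-0.94 to 2.61), Cd3g by 0.71 ± 0.515 (-0.50 to 1.92), Lck by 0.48 ± 0.428 (-0.52 to 1.48) and Zap70 by 0.30 ± 0.596 (-1.10 to 1.69). Their edgeR adjusted p ranged over 0.787 to 0.905. The intervals leave room for differences of several fold either way in Cd3e, so a lack of calls does not show that the drugs act alike.

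Counted over the members, 1 of 8 rose with gefitinib, 1 with afatinib and 2 with both inhibitors, beside 12.3%, 3.60% and 11.0% of all tested genes that rose; 1 of 8 with gefitinib is about the share of all genes. None of the 8 fell, beside 5.45%, 0.372% and 4.93% of tested genes that fell in the same order. The median log2 fold change of the members was 0.56 for gefitinib, 1.41 for afatinib and 0.99 for both, beside 0.043, 0.091 and 0.061 over all genes. In 4 of 8 members the 4 inhibitor libraries all exceeded both untreated libraries, as in 27.2% of all tested genes. The gefitinib and afatinib comparisons share their untreated libraries.

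Genes whose level followed the CD3 chains across the libraries were ranked by Pearson r with the mean log2(CPM + 0.5) of the 3 CD3 genes over 6 libraries. The closest were Prrx2 (r = 0.992), Pik3cg (0.991), Pnp (0.986), Tdrkh (0.985), Dennd1c (0.972), Fgd2 (0.972), Nt5e (0.966) and Hsh2d (0.965). Pik3cg encodes a phosphoinositide 3-kinase of leukocytes, Hsh2d a haematopoietic SH2 adaptor, and Prrx2 a homeobox factor of mesenchyme. With 6 libraries high values are common: 85 of 13327 genes, 0.638%, had r over 0.9. Of the other members, Cd4 had r = 0.870 and Zap70 0.072, as a description only, since all share the same libraries.

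Receptor-proximal signalling genes beyond the members showed mixed changes with both inhibitors: 2 of 18 tested rose and 2 fell, with a median log2 fold change of 0.52 beside 0.061 for all genes. Of all tested genes 11.0% rose and 4.93% fell in this comparison, so the list's share of rises was about that of all genes; the same shares stand behind the counts of the lists that follow. Sh2d2a, an adaptor that binds Lck, had 11 and 14 counts with gefitinib, 13 and 24 with afatinib and 1 and 0 untreated, a count ratio of 21.9 (95% exact interval 3.78 to 878; edgeR adjusted p = 0.0384). Bcl10, which links the receptor to NF-kB, rose by 0.83 (edgeR adjusted p = 0.0415). Its levels were 46.2 and 43.8 CPM with gefitinib, 29.0 and 38.7 CPM with afatinib, and 22.5 and 21.4 CPM untreated. The part of other skin cells in the Bcl10 values was not tested. Nfatc1 and Nfatc2, transcription factors released by calcium signals, fell by 1.24 and 1.68 on the log2 scale (edgeR adjusted p = 0.0280 and 0.0358). In the same comparison 3 of 7 endothelial genes fell (median log2 fold change -1.14), and 10 muscle genes had a median of -1.71 with 0 passed. The part of these tissues in the Nfatc1 and Nfatc2 values was not tested. Both calls were lost with scaling by library size only. Lat, the adaptor that ZAP-70 phosphorylates, had 0.67 (adjusted p = 0.248, edgeR).

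Of the other receptor chains 5 were tested and 0 passed. Cd247, the zeta chain on which ZAP-70 docks, was at 0.353 and 0.263 CPM with gefitinib, 1.10 and 1.66 CPM with afatinib, and 1.11 and 0.640 CPM untreated (both inhibitors, log2 fold change -0.40, edgeR adjusted p = 0.629). The constant-region genes of the alpha, beta, gamma and delta chains were not analysed here. Of 14 tested inhibitors of receptor signalling 1 rose, a smaller share than the 11.0% of all genes: Dgka, a diacylglycerol kinase, by 1.24 (edgeR adjusted p = 0.0243). Dgka was at 66.1 and 74.1 CPM with gefitinib, 41.1 and 65.6 CPM with afatinib, and 27.5 and 24.4 CPM untreated. The part of other skin cells in the Dgka values was not tested. Ptprc, which encodes the leukocyte phosphatase CD45 that keeps Lck active, had 0.39 (adjusted p = 0.573, edgeR), and 0 of 12 pan-leukocyte genes passed, with a median log2 fold change of 0.01.

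Among costimulators and checkpoints 2 of 9 tested rose and 0 fell, beside 11.0% and 4.93% of all genes. Lag3, an inhibitory receptor of activated T cells, had 27 and 30 counts with gefitinib, 19 and 32 with afatinib and 3 and 2 untreated (log2 fold change 2.87, edgeR adjusted p = 0.0302). Icos, a costimulator, had 27 and 20, 15 and 52, and 2 and 3 counts (2.89, edgeR adjusted p = 0.0359). Its ligand Icoslg fell by 1.57 (edgeR adjusted p = 0.0249), the 1 change among 6 tested ligands. T cell transcription factors gave 2 that rose and 1 that fell of 11 tested: Lef1 by 3.86 and Gata3 by 2.30 (edgeR adjusted p = 0.0159 and 0.0190), and Satb1 with a log2 fold change of -1.83 (0.0299). Skin epithelium also expresses Lef1, Gata3 and Satb1; of 9 tested keratinocyte genes 4 rose, and their summed level was 3086 to 3120 CPM with gefitinib, 2685 to 4773 CPM with afatinib and 955 to 1643 CPM untreated. The part of keratinocytes in these values was not tested.

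Among 9 tested homing receptors, S1pr1, the receptor by which lymphocytes leave tissue and which endothelium also carries, fell by 1.42 (edgeR adjusted p = 0.0225); 3 of 7 tested endothelial genes fell as well, and their part was not tested. Of 12 tested chemoattractants 2 rose: Ccl17 by 5.14 (edgeR adjusted p = 0.0131), and Ccl19, at 0 in both untreated libraries, by at least 9.29-fold against a floor of 3 counts per library (adjusted p = 0.0137, edgeR), and 0 fell. With gefitinib alone Ccl20 also rose (log2 fold change 3.74, edgeR adjusted p = 0.0372) and Cxcl12 fell (-1.39, adjusted p = 0.0429); neither passed with afatinib, and their afatinib against gefitinib differences did not pass (0.793 and 0.787).

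Of 9 tested T cell cytokine receptors 0 passed. None of the 12 T cell cytokines had enough counts to be tested. Il17a had 7 and 7 counts with gefitinib, 2 and 5 with afatinib and 0 in both untreated libraries, Il22 had 6 and 4, 0 and 11, and 0 and 0, and Ifng was at 0 in all 6 libraries. The whole list summed to 1.06 to 1.93 CPM with gefitinib, 1.04 to 2.20 CPM with afatinib and 0.291 to 0.346 CPM untreated. Of the 14 context genes named as past the threshold with both inhibitors, 14 lost the call without untreated replicate 1 and 14 without untreated replicate 2, while 8 lost it without gefitinib replicate 1, 9 without gefitinib replicate 2 and 2 without afatinib replicate 2. Of all tested genes, 12 rose and 3 fell without untreated replicate 1, and 2 rose and 1 fell without untreated replicate 2. With limma-voom 2 lost it, and with library size only 4 did, namely Nfatc1, Nfatc2, Icoslg and S1pr1, all among the 5 that fell; none of the 14 changed sign in any alternative fit. Sh2d2a, Lag3, Icos, Ccl17 and Ccl19, 5 of the 14, were under the filter's level in both untreated libraries, so they were tested through the inhibitor libraries alone.

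**Figure D4:**
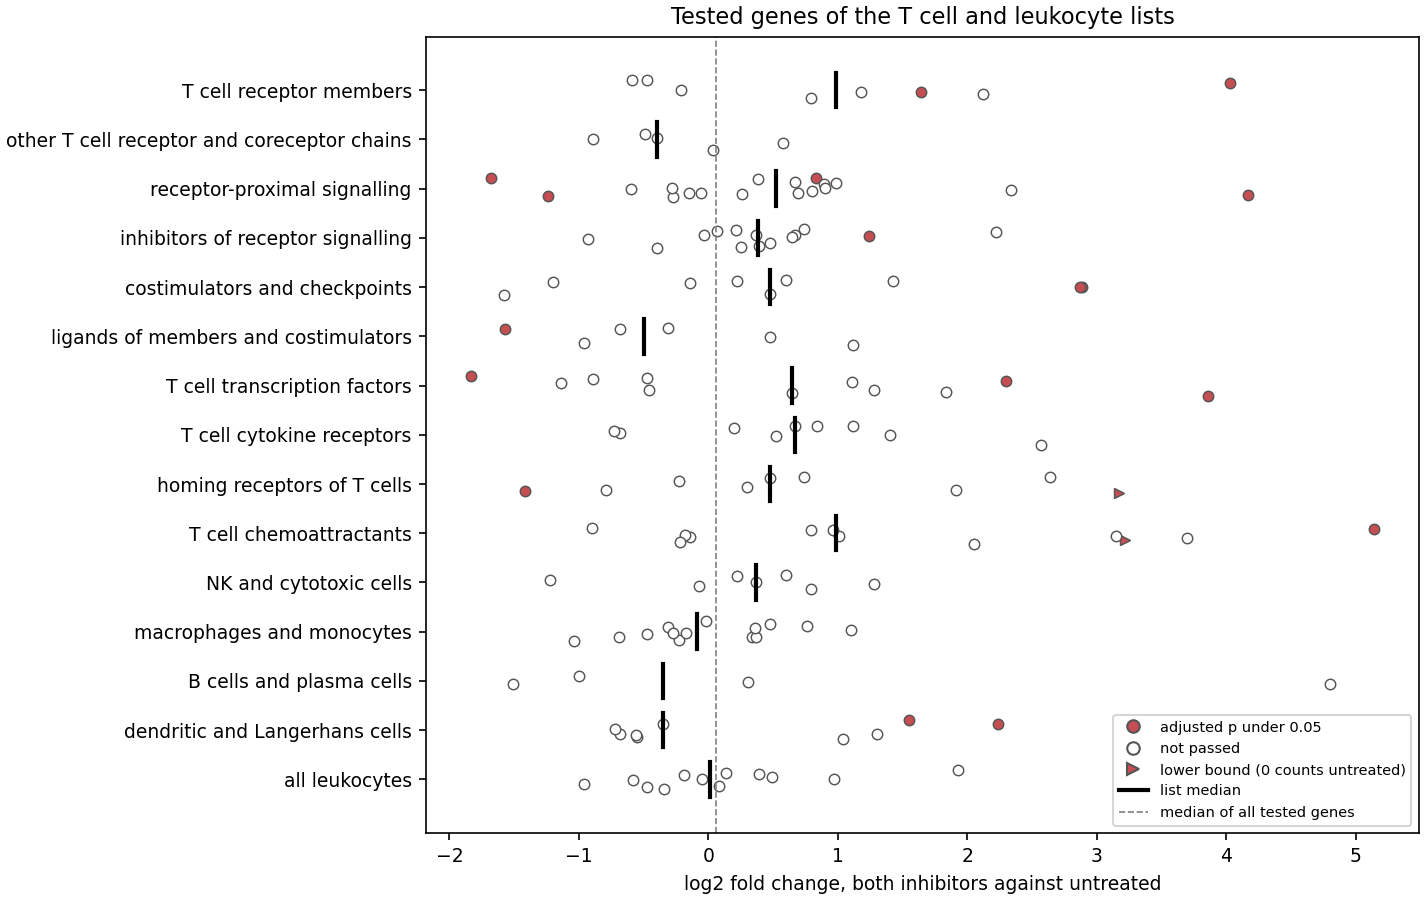
Log2 fold change with both inhibitors against untreated for every tested gene of 15 lists; filled points have an edgeR adjusted p under 0.05, triangles are lower bounds for genes at 0 in both untreated libraries, black bars are list medians, and the dashed line is the median of all tested genes (0.061). The members' median is 0.99 and that of the pan-leukocyte list is 0.01; fitted values of genes with 1 to 3 untreated counts depend on the fit's prior count.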

How the data were processed

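Messenger RNA libraries of rat back skin (2 gefitinib, 2 afatinib, 2 untreated) were made with TruSeq kits, per the labels' protocols. The submitters' processing notes name featureCounts 1.5.0-p3, DESeq2 1.16.1 and HISAT2 2.0.5; build, annotation and strand setting were not stated in the sources at hand. Unscaled read counts per gene are what the deposited count table holds. The deposited FPKM table was checked to be the counts divided by gene length and 1 divisor per library, and was used for levels between genes only.

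Counts were filtered with filterByExpr (16398 of 34225 loci kept), TMM-scaled and fitted with edgeR 4.0.16 (quasi-likelihood) (R 4.3.3), using 1 term for each group, all 6 libraries and 3 residual degrees of freedom. Tests were two-sided, with Benjamini-Hochberg adjustment over all genes and a threshold of 0.05. The SE of a log2 fold change came from its F statistic. The fit was tested on simulated data. Intervals on counts are 95% exact Poisson or binomial intervals and cover counting error only. Where untreated libraries held 1 to 3 counts the ratio of counts is given, and where they held 0 a bound.

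The members and the gene lists were chosen with earlier results of these data known. All members were named; from each of 21 other lists, up to 4 genes with the smallest p among those past the threshold against untreated, up to 2 more with the highest FPKM, and always Ptprc, Cd247 and Lat were eligible. Of 263 listed genes 247 were found and 194 tested; some listed genes are not reported here. Alternatives were DESeq2 1.42.0, limma-voom (limma 3.58.1), library size only, no filter, a replicate block, only the groups compared, and leaving out each library. Replicate numbers are shared by the groups in the labels, with nothing said of shared animals or batches; correlations of same-numbered deviations were -0.174, 0.0331 and 0.0374, so they were not taken as pairs.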

Additional observations from a re-analysis of the deposited data

How the results depend on the processing

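Over the alternatives run, Zap70 and Lck had a positive log2 fold change against untreated in every fit of every comparison, and no member that passed changed direction. Which genes passed depended far more on the setting. With library size only, 2 members rose for gefitinib and 3 for afatinib; over all genes 3071 rose and 191 fell for gefitinib, 1250 and 31 for afatinib, 3126 and 225 for both inhibitors, and 1 gene passed for afatinib against gefitinib. With DESeq2, 2 members rose for gefitinib and 3 for afatinib; 2072 genes fell for gefitinib, 1494 rose and 498 fell for afatinib, 1763 fell for both, and 32 passed for afatinib against gefitinib. Without the filter, 3 members rose for afatinib; 1934 genes fell for gefitinib, 1632 rose and 451 fell for afatinib, 1721 fell for both, and 28 passed for afatinib against gefitinib. With limma-voom, 0 members rose for afatinib and 1 for both; 32 genes rose and 2 fell for afatinib. In fits of only the groups compared, 2221 genes fell for gefitinib, and 0 members and 48 genes rose and 7 genes fell for afatinib. With the replicate number as a block, 0 members and 337 genes rose and 32 genes fell for afatinib, and 1 member rose for both (adjusted p 0.0647 for Zap70 with afatinib and 0.0618 for Lck with both), and 5 of the 14 context genes called with both lost the call. The causes of these shifts were not tested.

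Leaving out each library in turn gave 0 to 1 member that rose for gefitinib, 0 to 3 for afatinib and 0 to 2 for both. Over all genes it gave 0 to 3022 higher and 0 to 2556 lower for gefitinib, 0 to 2332 higher and 0 to 1358 lower for afatinib, 2 to 3254 higher and 1 to 2573 lower for both, and 0 to 3 for afatinib against gefitinib. The alternatives for context genes were chosen after seeing the data. At 1 to 200 counts per member and library, and with 3 residual degrees of freedom, depth and the number of libraries limit every call. Of the 8 genes most like the CD3 chains, 6 were shared with a pseudocount of 2.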
